A study of Mus musculus with 22 samples.

Results

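The 9 genes described here encode the machinery that turns neuropeptide precursors into peptides and packs them into dense core vesicles. Pcsk1, Pcsk2, Pcsk1n, Cpe and Pam were grouped as processing genes and Chga, Chgb, Scg2 and Scg3 as granins. They were chosen by symbol, with earlier results of these data known. All 9 were found among the 20668 genes of the nuclei table and the 16304 genes of the whole-cell table. Single-cell RNA sequencing counts unique molecular identifiers (UMIs), so that each UMI stands for 1 captured RNA molecule.

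All mice were male leptin-deficient Lep ob/ob mice, 11 weeks old, which are obese and diabetic. They received 1 intracerebroventricular (icv) injection of 3 µg FGF1 or of PBS vehicle, and the vehicle mice were pair-fed to the FGF1 mice. Hypothalamic nuclei came from 3 FGF1 and 3 vehicle mice on Day 1 and from 2 FGF1 and 2 vehicle mice on Day 5, and whole hypothalamic cells came from 6 FGF1 and 6 vehicle mice on Day 5. Nuclei carry the cell type labels of the deposited metadata, and whole cells carry cluster numbers, named here from marker genes. The study removed neurons from the whole-cell data before deposit, so neurons could be followed only in the nuclei.

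Neuropeptides are made as long precursors. The convertases encoded by Pcsk1 and Pcsk2 cut precursors such as pro-opiomelanocortin after paired basic residues, and proSAAS, the product of Pcsk1n, inhibits the Pcsk1 convertase. Carboxypeptidase E, from Cpe, trims the basic residues left at the cut ends, and the enzyme from Pam amidates the C terminus of many peptides. Granins are acidic proteins that aggregate in the trans-Golgi network and help to form the dense core granule, with secretogranin III, from Scg3, also binding other granins at the granule membrane.

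On GRCm38, the build of the deposited tables, the convertase genes are Pcsk1 (chr13:75089826-75134861) and Pcsk2 (chr2:143546156-143816285), and the inhibitor gene Pcsk1n lies on the X chromosome (chrX:7919822-7924410). Cpe lies at chr8:64592542-64693054 and Pam at chr1:97795114-98095646. The granin genes are Chga (chr12:102554969-102565028), Chgb (chr2:132781278-132795079), Scg2 (chr1:79434669-79440120) and Scg3 (chr9:75643189-75684056). Pcsk2, Pcsk1n and Scg3 have annotated genes on the opposite strand within their span, and Pam has annotated genes on both strands.

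The cAMP response element TGACGTCA is a textbook binding site of the transcription factor CREB. It and the variant TGACGTAA were searched on both strands of the RefSeq promoter windows on GRCm38.p6, because several granins moved together across libraries. The windows run from 250 bases before to 50 after each start, and only the 250 bases before the start were searched. In these searched bases TGACGTCA lies in 1.55% of 32851 windows, TGACGTAA in 0.447%, and either in 1.98%. A match was found for Scg2 (chr1:79440076-79440105, minus strand), Chgb (chr2:132781559-132781588, plus strand), Pcsk1 (chr13:75089768-75089797, plus strand) and Chga (chr12:102554886-102554915, plus strand). The motif began 68 bases before the RefSeq start in Scg2, 72 in Chgb, 78 in Pcsk1 and 44 in Chga. The Scg2 and Chgb stretches lie within the gene spans printed above, whose starts differ from these. The matched 30 bases are printed below 5′ to 3′ on the gene's strand, with the motif in capitals.
Scg2: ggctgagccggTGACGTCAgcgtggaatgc
Chgb: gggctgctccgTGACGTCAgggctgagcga
Pcsk1: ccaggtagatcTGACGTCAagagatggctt
Chga: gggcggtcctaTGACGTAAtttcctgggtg

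The searched bases of the windows of Pcsk2, Pam, Scg3 and Pcsk1n held neither form, and no window was matched for Cpe. These matches describe letters and were not tested for binding. Over the neuron-labelled nuclei of the 10 libraries Scg2, Chga and Chgb followed each other at r = 0.95 to 0.98. Pcsk1, which has the motif, followed them at -0.03 to 0.16, and Scg3, where it was not found, at 0.65 to 0.74.

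Depth ranged from 591 to 5768 nuclei per mouse with 2721087 to 16345981 UMIs, and from 1967 to 7926 whole cells per mouse with 2652897 to 11866269 UMIs. Of 24645 barcode sequences in the nuclei 318 occurred in more than 1 mouse, as did 1791 of 53065 in the whole cells. A marker was counted for a type if 10% or more of its nuclei held a UMI of the gene and the CPM was no less than 2 times the CPM of the other nuclei. Astro and Olig each had 5 of 5 markers of their own class, Epend had 5 ependymal and 5 astrocyte markers, and Tany had 3 tanycyte and 5 astrocyte markers. Summed UMIs of 4 neuron genes (Snap25, Syt1, Rbfox3 and Stmn2) stood at 7.36 to 17.5 per 10000 in Day 1 Astro nuclei and at 32.2 to 37.5 in all neurons together. In Olig they stood at 29.6 to 34.7, in Micro at 27.6 to 36.4 and in COP at 20.4 to 31.3. Glial nuclei thus also held neuronal RNA, in Olig and Micro at levels near those of neurons.

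Over the whole nuclei table the members had 2067 UMIs (Pcsk1) to 61392 UMIs (Pam). In whole cells Cpe had 167316 UMIs, Scg3 11552, Pcsk1n 10775 and Pam 10572, whereas Pcsk1 had only 53. Levels by cell type are given as UMIs per 1000000 UMIs of all genes in that mouse and type (CPM), as the mean ± SD over vehicle mice of both days. They are a description without a test. Nuclear UMIs include introns and genes differ in length, so levels are compared between types for 1 gene and not between genes.

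Pcsk1 was highest in n06.Oxt neurons, the label of oxytocin neurons, at 178 ± 64.7 CPM (n = 5). Next came n02.Gm8773/Tac1 neurons at 86.6 ± 45.2 (n = 3) and n13.Agrp/Gm8773 (Agrp) neurons at 82.2 ± 27.8 (n = 5). It was low in glia, at 7.03 ± 5.30 in Astro (n = 5).

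Pcsk2 was more even. It was highest in Glu4 neurons at 617 ± 135 CPM (n = 4), followed by n31.Fam19a2 at 590 ± 28.5 (n = 2), n29.Nr5a1/Adcyap1 at 524 ± 56.4 (n = 5) and Agrp neurons at 516 ± 263 (n = 5). It was lowest in Astro at 167 ± 97.3 (n = 5).

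Cpe was the member with its highest mean in a glial type in the nuclei. Types hold different sets of mice, so the order of means also depends on which mice enter. It stood at 1126 ± 129 CPM in Astro (n = 5), 963 ± 132 in Epend (n = 3) and 872 ± 199 in Tany (n = 4). The highest neuronal type was Agrp neurons at 545 ± 57.5 (n = 5), and the lowest type was GABA14 at 70.6 ± 10.7 (n = 2). In whole cells Cpe was highest in astrocyte cluster 4 at 5653 ± 1300 (n = 6), followed by tanycyte cluster 0 at 3088 ± 810 and ependymal cluster 6 at 2669 ± 581. Astrocyte cluster 1 held 1902 ± 330 and oligodendrocyte cluster 11 the lowest level at 582 ± 114.

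Pam ran the other way in the nuclei, highest in Glu6 neurons at 1279 ± 94.7 CPM (n = 3) and lowest in Astro at 404 ± 18.6 (n = 5) and Epend at 332 ± 130 (n = 3). In whole cells it was highest in the vascular and leptomeningeal cells (VLMC) of cluster 13 at 543 ± 53.4 (n = 4). The tanycyte clusters 10, 7 and 0 followed, at 345 ± 112, 244 ± 88.8 and 235 ± 43.5.

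Pcsk1n had its highest mean in n20.Kiss1/Tac2 neurons at 156 ± 21.9 CPM (n = 2), followed by Astro at 135 ± 84.3 (n = 5). In the 2 mice of n20.Kiss1/Tac2, vehicle Day 1 replicate 3 and vehicle mouse 28, it was at 171 and 140 there and at 74.1 and 245 in Astro. The vehicle values of Pcsk1n in Astro ran from 48.4 to 245 between mice. Scg3 had its highest mean in n03 neurons at 201 ± 8.61 (n = 2), followed by Astro at 168 ± 49.9 (n = 5). In the 2 mice of n03, vehicle Day 1 replicate 2 and vehicle mouse 28, n03 was at 207 and 195 and Astro at 204 and 220. In whole cells Scg3 also led in astrocytes, at 327 ± 105 in cluster 4 and 282 ± 50.5 in cluster 1 (n = 6), against 150 ± 33.7 in oligodendrocyte precursor cells (OPC, cluster 5).

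The other 3 granins were highest in neurons and lowest in Epend. Chga led in n03 at 336 ± 109 CPM (n = 2) and n16.Rgs16/Vip at 149 ± 47.1 (n = 5), and fell to 15.0 ± 14.4 in Epend (n = 3). Chgb had its highest mean in n03 at 140 ± 61.1 (n = 2) and fell to 9.87 ± 8.56 in Epend. In neither of its 2 mice did n03 lead. In vehicle Day 1 replicate 2 Glu6 was at 221 against 184 in n03, and in vehicle mouse 28 n23.Sst/Unc13c was at 118 against 97.3. Scg2 had its highest mean in n19.Gpr50 at 742 ± 624 (n = 2) and was at 572 ± 353 in Agrp neurons (n = 5) and 21.6 ± 25.3 in Epend. The 2 mice of n19.Gpr50 were vehicle Day 1 replicate 2 (1184) and vehicle mouse 28 (301). In these mice n16.Rgs16/Vip was at 1070 and 643 and GABA15 at 991 and 554, so n19.Gpr50 led in only 1 of them.

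With 2 mice at the least, 25 nuclear types could be ordered for each gene. For 7 of the 9 members all 24 pairs of neighbours in that order overlapped between mice, and for Cpe and Chga 23 of 24 did. The type with the highest CPM was also the type with the highest share of nuclei holding a UMI, after thinning every nucleus to 1 number of UMIs, for 6 of the 9 members.

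**Figure D1:**
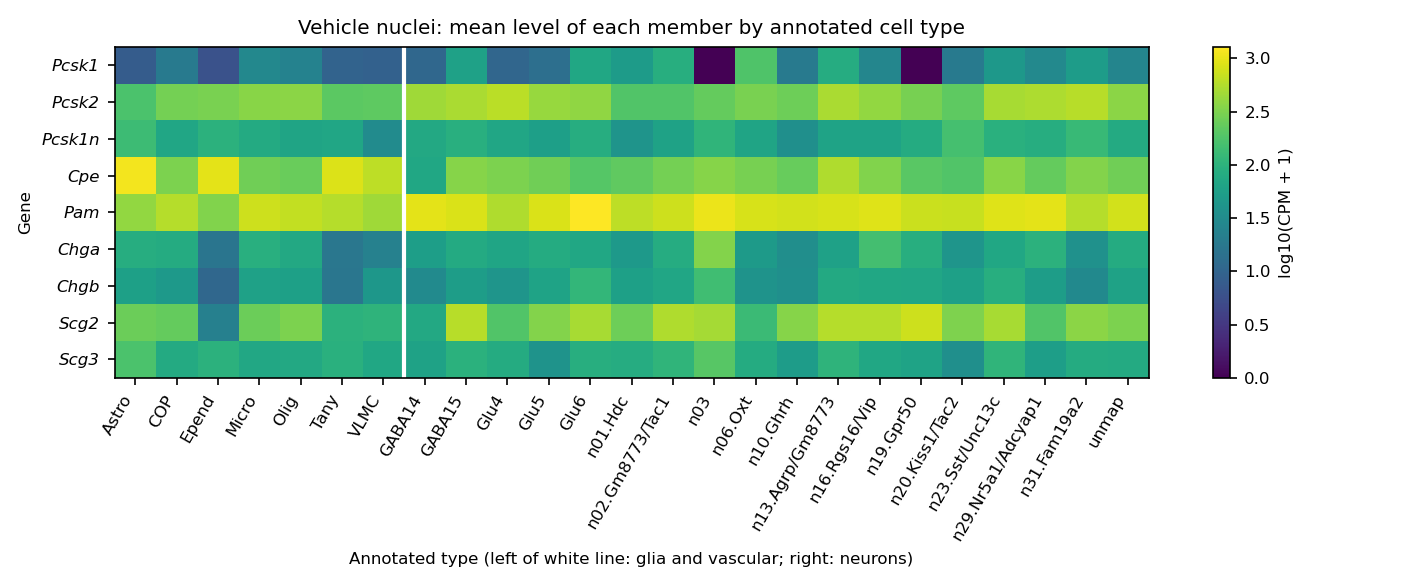
Mean level of each member (rows) in vehicle nuclei by annotated cell type (columns), as log10(CPM + 1), for types with at least 2 mice; glial and vascular types lie left of the white line. Along its row Cpe is brightest in Astro (1126 CPM), Epend (963) and Tany (872), and Pcsk1 is brightest in n06.Oxt (178).

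The first comparison asked whether icv FGF1 changed these genes on Day 1 in any cell type. UMIs were summed per mouse and type and tested with edgeR's quasi-likelihood F test, with Benjamini-Hochberg adjustment over all genes tested in that type (false discovery rate, FDR). From here on mouse values are normalised CPM, which is CPM over the genes tested after scaling between mice by the trimmed mean of M-values (TMM), and fold changes are log2 of FGF1 over vehicle. No member passed an FDR of 0.05 in any of 18 types on Day 1. In simulated counts of Day 1 Astro nuclei the test recovered 0 of 100 genes changed 2-fold and 8 of 100 changed 4-fold. Over all genes 1.05% of tests were called. Of 109 tests of a member in a type 9 had an unadjusted p under 0.05, beside 5871 of 72292 tests of any gene. The median fold change of the members was -0.05.

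Cpe lay above 0 in 15 of 18 types on Day 1, with a median of 0.24, and Pcsk2 lay below 0 in 14 of 18, with a median of -0.40. The median of Cpe was 0.41 without FGF1 replicate 3, and without vehicle replicate 3 Pcsk2 lay below 0 in 9 of 15 types with a median of -0.16. Scg2 lay below 0 in 13 of 17 types (median -0.38) and Chga in 7 of 7. Without vehicle replicate 2, the library with the highest Scg2, both turned, with Scg2 above 0 in 12 of 14 types (median 0.66) and Chga in 6 of 7 (median 0.53). These are counts of signs without a call.

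The smallest FDR was that of Cpe in n29.Nr5a1/Adcyap1 neurons, a label that names the ventromedial hypothalamic marker Nr5a1. The 3 FGF1 mice held 412, 581 and 496 normalised CPM and the vehicle mice 246, 254 and 258, so the groups did not overlap. With 3 mice per group such separation is not rare by chance, so here and below it is a description only. The fold change was 0.97 (SE 0.22, FDR = 0.105). DESeq2 called it (FDR = 0.0395), as did 1 of 6 edgeR fits with 1 mouse left out, that without FGF1 replicate 1 (FDR = 0.00847), and edgeR without the filter on low counts (FDR = 0.0106). On Day 5 Cpe in the same neurons was at 234 and 316 with FGF1 and 207 and 234 with vehicle (0.35, SE 0.19, FDR = 0.610).

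In Agrp neurons, which make the orexigenic peptide AgRP, all 5 members tested lay below 0 on Day 1. Pcsk2 stood at 455, 322 and 426 normalised CPM with FGF1 and at 799, 699 and 1247 with vehicle, without overlap (-1.15, SE 0.32, FDR = 0.182). Scg2 stood at 626, 210 and 178 with FGF1 and at 571, 1767 and 416 with vehicle (-1.35, SE 0.59, FDR = 0.465). Cpe ran from 462 to 634 with FGF1 and from 728 to 910 with vehicle (-0.48, SE 0.29, FDR = 0.635). The 4 neuron genes moved with them, at 11.4 to 17.5 UMIs per 10000 with FGF1 and 20.3 to 28.4 with vehicle, and their part in these differences was not tested. On Day 5 the 4 members tested in Agrp neurons differed by -0.14 to 0.12, with FDRs of 0.988 to 0.995.

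Pcsk1 could be tested in only 3 types on Day 1 and lay below 0 in each. In n06.Oxt neurons 2 FGF1 mice held 98.7 and 158 normalised CPM against 289, 223 and 222 in the vehicle mice (-0.89, SE 0.44, FDR = 0.994). With all neuron labels merged Pcsk1 was at 21.4 ± 1.93 with FGF1 and 37.3 ± 6.81 with vehicle (SD, n = 3), again without overlap. The fold change was -0.80 (SE 0.22, unadjusted p = 0.00574, FDR = 0.442), and no member was called in merged neurons, where 0% of all genes were. On Day 5 merged neurons held 29.8 ± 0.740 Pcsk1 with FGF1 and 25.7 ± 13.6 with vehicle (SD, n = 2).

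Other members in merged neurons stood as follows. On Day 1 Pam was at 812 ± 14.6 normalised CPM with FGF1 and 804 ± 68.4 with vehicle, Pcsk2 at 391 ± 5.32 and 426 ± 53.4, and Scg3 at 77.3 ± 10.6 and 76.1 ± 16.3 (SD, n = 3). Cpe was at 360 ± 54.0 and 288 ± 21.0, without overlap (0.32, SE 0.18, FDR = 0.685). On Day 5 it was at 311 ± 49.0 and 241 ± 11.8 (SD, n = 2), a change of 0.36 (SE 0.15, FDR = 0.492). The fitted change of Pam was 0.01 on both days, with SEs of 0.17 and 0.14.

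In the glia that line the third ventricle the members stood as follows on Day 1. Cpe in Tany was at 1525 ± 468 with FGF1 and 1268 ± 72.9 with vehicle, and in Epend at 2388 ± 384 and 1867 ± 236 (SD, n = 3), with FDRs of 0.726 and 0.452. Pcsk2 in Epend was at 312 ± 100 and 583 ± 171 without overlap (-0.86, SE 0.36, FDR = 0.107). In Astro, Cpe was at 1961, 1594 and 1296 with FGF1 and at 1164, 1405 and 1064 with vehicle (0.42, SE 0.54, FDR = 0.970). No member was called for a difference of its FGF1 effect between Tany, Epend and Astro in 16 tests, where 0.419% of all tests were called. An unadjusted p under 0.05 was found in 1 of the 16, beside 940 of 11705 tests of any gene.

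**Figure D2:**
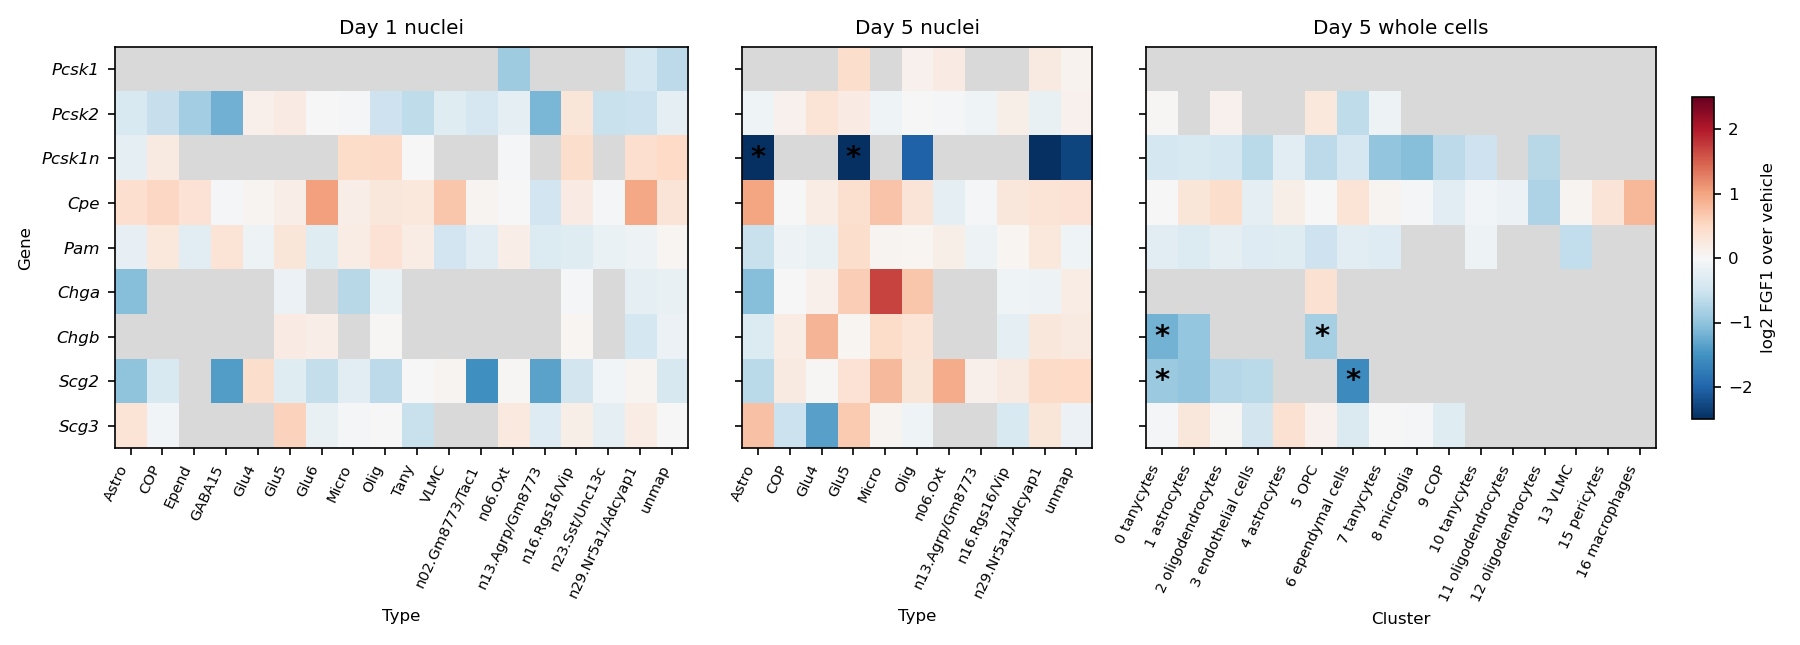
Log2 fold change of FGF1 over vehicle for each member (rows) in each annotated type or numbered cluster (columns) in the 3 comparisons; grey cells were not tested, asterisks mark an FDR under 0.05, and colours saturate at 2.5. Day 1 nuclei carry 0 asterisks, Day 5 nuclei 2, both in Pcsk1n, and Day 5 whole cells 4, in Chgb and Scg2.

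The second comparison asked the same of Day 5 nuclei. Of 81 member tests in 11 types 2 were called, both lower with FGF1 and both Pcsk1n. An unadjusted p under 0.05 was found in 13 of the 81, beside 6151 of 71541 tests of any gene. The share called over all genes was 0.288%, and 0.625% in Astro and 0.321% in Glu5. Pcsk1n lay below 0 in 5 of 5 types with a median of -2.63, and in 4 of 4 with a median of -0.89 without vehicle mouse 28. These types share the same mice, and a low gene can pass the filter on low counts through the vehicle mice alone. Cpe lay above 0 in 8 of 11 types (median 0.32), with a median of 0.13 without FGF1 mouse 45 and 0.50 without FGF1 mouse 37. Scg2 lay above 0 in 10 of 11 types (median 0.30), but without FGF1 mouse 45 it lay below 0 in 11 of 11 (median -0.42).

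In Astro nuclei Pcsk1n was at 10.0 and 9.64 normalised CPM in the FGF1 mice 37 and 45, and at 278 and 49.4 in the vehicle mice 28 and 38 (-4.23, SE 0.62, FDR = 0.0221). In Glu5 neurons it was at 23.1 and 11.3 with FGF1 and at 104 and 20.2 with vehicle, so that the groups overlapped (-2.63, SE 0.47, FDR = 0.0134). Vehicle mouse 28 was the higher vehicle mouse in both. Without it only 1 vehicle mouse was left, so that the spread came from the FGF1 mice alone. The Astro value was then -2.28 (FDR = 0.453), and Pcsk1n in Glu5 did not pass the filter on low counts. DESeq2 did not call Glu5 (-2.07, FDR = 1.000) and gave no adjusted p for Astro. With batch as a block Pcsk1n was called in Astro (-3.62, FDR = 1.29e-04) and in n29.Nr5a1/Adcyap1 (-2.28, FDR = 7.8e-08), and not in Glu5 (-1.91, FDR = 1.000). With 2 mice per group this block leaves hardly any spread between mice to judge by, so its small FDRs do not measure strength. The share of all genes called in it is not given here.

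Mouse 28 was also the higher vehicle mouse in types that were not called. Pcsk1n in Olig was at 26.8 and 14.6 with FGF1 and 94.0 and 31.6 with vehicle (FDR = 0.0895), in n29.Nr5a1/Adcyap1 at 15.0 and 19.8 against 168 and 29.7 (FDR = 0.447), and in the label unmap at 20.0 and 14.9 against 121 and 36.2 (FDR = 0.449). Vehicle mouse 38 lay above both FGF1 mice in Astro, Olig, n29.Nr5a1/Adcyap1 and unmap, and in all 5 types Pcsk1n was lower in the FGF1 mouse in 2 of 2 batches.

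Over all neuron-labelled nuclei Pcsk1n was at 231, 28.8 and 45.4 CPM in the FGF1 mice of Day 1 and at 67.1, 92.4 and 66.2 in the vehicle mice of Day 1. On Day 5 it was at 18.7 and 15.5 with FGF1 and at 119 and 36.5 with vehicle. The highest library held 14.9 times the level of the lowest, against 4.99 times for Scg2, 3.77 for Chgb and 3.33 for Chga, and 1.47 for Pcsk2 and 1.17 for Pam. The 5 genes that followed Pcsk1n most closely over the 10 libraries were Ndufb2 (12.4 to 169 CPM), Ppdpf (5.92 to 74.9), Dgcr6 (4.29 to 27.9), Rnaseh2c (1.18 to 48.7) and Cox6a1 (15.6 to 307). Ndufb2 and Cox6a1 encode subunits of the mitochondrial respiratory chain, and Rnaseh2c a subunit of ribonuclease H2. What differs between these libraries was not tested.

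The granins Scg2, Chga and Chgb had their 3 highest values in the same 3 libraries. Scg2 was at 680 CPM in vehicle Day 1 replicate 2, 520 in FGF1 mouse 45 and 391 in FGF1 Day 1 replicate 1, Chga at 158, 122 and 105, and Chgb at 111, 88.4 and 77.5. In the other 7 libraries Scg2 ran from 136 to 312. The 3 libraries come from both treatments and both days. Ctsl and Atp6ap2 were among the 5 genes that followed Scg2 and Chga most closely, at 25.7 to 139 and 92.7 to 263 CPM, and were likewise chosen after their values were seen. Ctsl encodes the lysosomal protease cathepsin L.

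**Figure D3:**
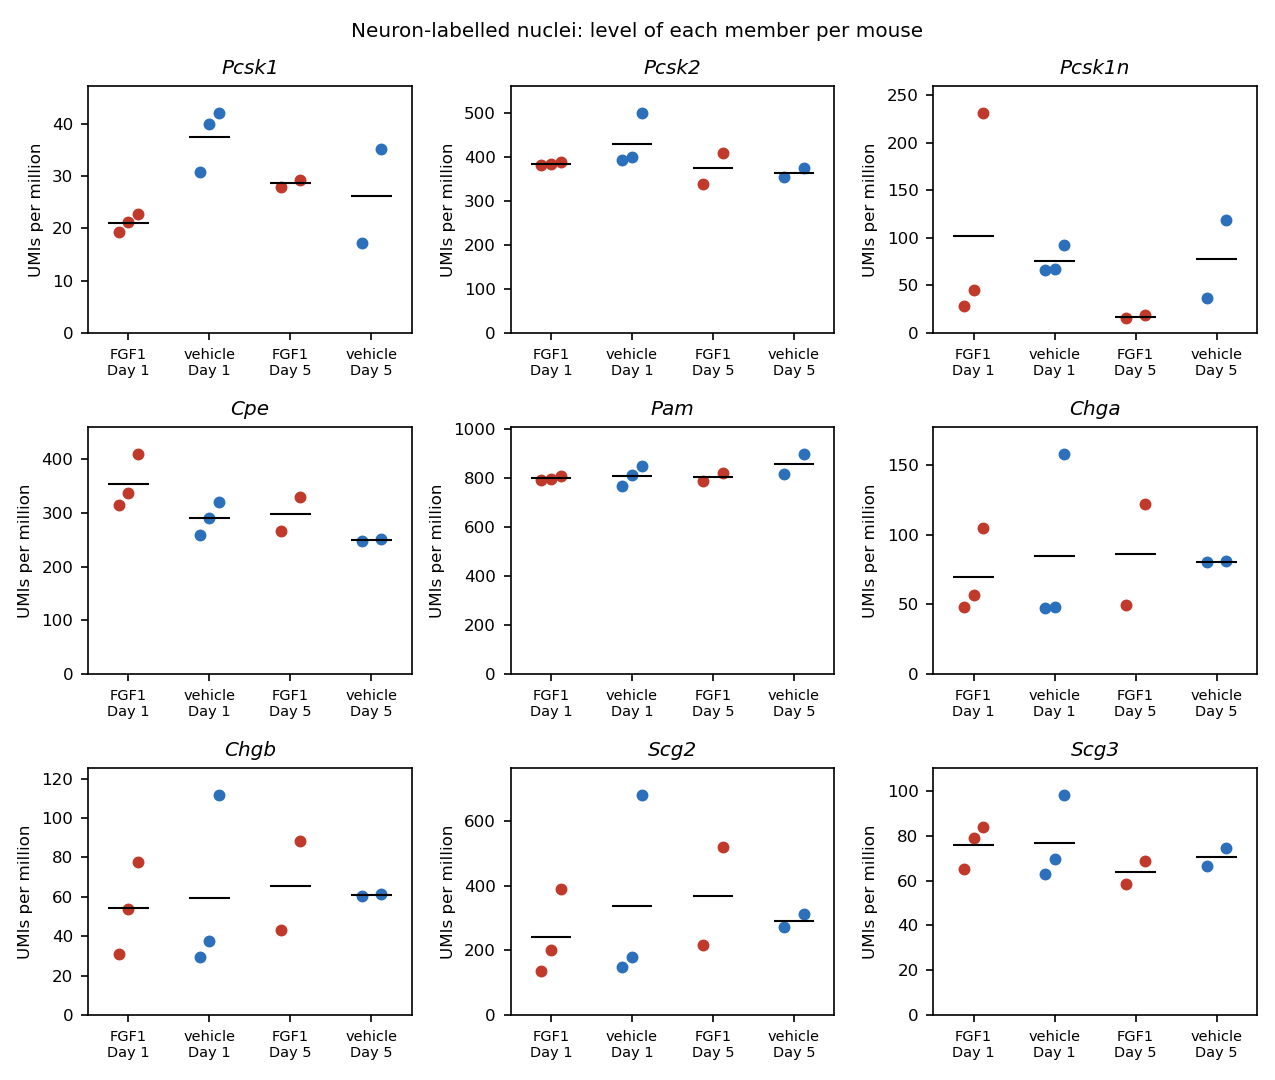
Level of each member in CPM over all neuron-labelled nuclei of each mouse (points), by treatment and day, with the group mean as a line. Pcsk1n spans 15.5 to 231 and Scg2 136 to 680 within and across groups, whereas Pam stays between 768 and 896.

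In Day 5 Astro nuclei Cpe was at 2129 and 2997 normalised CPM with FGF1 and at 1496 and 1080 with vehicle (0.99, SE 0.37, FDR = 0.240). Scg3 was at 296 and 400 with FGF1 and 251 and 155 with vehicle (0.73, SE 0.39, FDR = 0.434). Neither passed the test. Chga in Micro had the highest fold change of the granins on Day 5 (1.70, SE 0.55, FDR = 0.492), in nuclei whose neuron-gene UMIs, 33.0 to 36.7 per 10000, were near those of neurons.

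Whether the FGF1 effect differed between Day 1 and Day 5 was tested as an interaction. None of 86 member tests was called, beside 0.00784% of all tests. An unadjusted p under 0.05 was found in 7, beside 3436 of 76499 tests of any gene. With both days in 1 fit and day as a block, 0 of 86 were called, beside 0.107% of all tests. An unadjusted p under 0.05 was found in 5, beside 5973 of 76499 tests of any gene. Without FGF1 replicate 1 of Day 1, the library with the highest Pcsk1n, 6 were called, 5 of them Pcsk1n lower with FGF1 and the last Cpe in n29.Nr5a1/Adcyap1. The 0.107% belongs to the fit of all mice and is no background for these 6.

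The third comparison, in Day 5 whole cells, had 6 mice per group. Each of 16 clusters was tested by itself, and 62 tests of 8 members could be made, Pcsk1 being too low. Here 4 tests were called, all lower with FGF1 and all in Scg2 or Chgb, beside 1.75% over all genes. An unadjusted p under 0.05 was found in 22 tests, beside 9021 of 67441 tests of any gene. Pcsk1n lay below 0 in 12 of 12 clusters (median -0.58), Pam in 10 of 10 (median -0.31), Scg2 in 5 of 5 and Chgb in 3 of 3, while Cpe lay above 0 in 10 of 16 (median 0.04) and in 6 of 16 without vehicle mouse 35. Without vehicle mouse 25 the median of Pcsk1n was -0.31, with 12 of 12 clusters still below 0. The median of Pam was -0.20 without FGF1 mouse 10 and -0.48 without FGF1 mouse 36, with 10 of 10 clusters below 0 in both. All clusters come from the same mice, so these signs are not independent. A low gene such as Scg2 or Chgb can also pass the filter on low counts through 1 group alone.

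Scg2 in tanycyte cluster 0 ran from 8.55 to 26.6 normalised CPM with FGF1 (median 16.3) and from 16.0 to 45.6 with vehicle (median 23.9). The fold change was -0.93 (SE 0.24, FDR = 0.0229), beside 2.64% of genes called lower in this cluster. In ependymal cluster 6 Scg2 ran from 0 to 24.2 with FGF1 (median 10.0) and from 20.7 to 53.2 with vehicle (median 29.4), with a fold change of -1.58 (SE 0.33, FDR = 0.00814) beside 0.743% called lower. The mouse values overlapped in both clusters, and Scg2 was lower in the FGF1 mouse in 5 of 6 batches in each, every batch holding 1 mouse of each treatment.

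Chgb in cluster 0 ran from 1.69 to 16.0 normalised CPM with FGF1 (median 6.55) and from 9.58 to 27.5 with vehicle (median 12.0), a change of -1.17 (SE 0.32, FDR = 0.0264). In OPC cluster 5 it ran from 15.5 to 54.2 with FGF1 (median 38.5) and from 45.9 to 83.2 with vehicle (median 60.4), a change of -0.82 (SE 0.24, FDR = 0.0485) beside 1.18% called lower. Chgb was lower with FGF1 in 5 of 6 batches in cluster 0 and in 6 of 6 in cluster 5. In fits with 1 mouse left out Chgb was called in only 3 of 12 in cluster 5 (FDR up to 0.162) and in 7 of 12 in cluster 0, and Scg2 in 8 of 12 in cluster 0 and 9 of 10 in cluster 6. With batch as a block 8 tests were called, all lower: Scg2 in clusters 0, 1 and 6, Pcsk1n in clusters 5 and 7, Chgb in cluster 5, Pcsk2 in cluster 6 and Cpe in cluster 12. The 1.75% of all genes given above belongs to the fit without a block and is no background for these 8. DESeq2 called none of 78, and with only the cells inside the stated limit on mitochondrial and ribosomal UMIs, 50508 of 54890, Scg2 in cluster 0 was the 1 call.

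The processing genes were not called in single clusters. Pcsk1n in tanycyte cluster 7 was at 136 ± 70.4 normalised CPM with FGF1 (n = 5) and 262 ± 80.2 with vehicle (n = 6), a fitted vehicle level 1.99 times that of FGF1 (FDR = 0.285). With batch as a block the log2 change was -1.22 (FDR = 4.05e-04). In microglia of cluster 8 it was at 74.2 ± 50.5 and 147 ± 83.3 (n = 6, FDR = 0.223). Pam in OPC cluster 5 was at 77.4 ± 32.9 and 120 ± 26.8 (n = 6, FDR = 0.183), and in VLMC at 530 ± 195 (n = 5) and 834 ± 79.1 (n = 4, FDR = 1.000). Pcsk2 in cluster 6 was at -0.73 with batch as a block.

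These levels are low, and neuronal RNA moved with them. UMIs of the 4 neuron genes had a lower mean with FGF1 in 19 of 19 clusters, as in cluster 0 with 1.12 to 2.46 per 10000 with FGF1 and 1.36 to 3.53 with vehicle, and in cluster 6 with 0.919 to 2.22 and 1.21 to 3.13. With that level as a covariate Scg2 in cluster 0 was at -0.76 (FDR = 0.217), Scg2 in cluster 6 at -1.26 (FDR = 0.0708) and Chgb in cluster 5 at -0.43 (FDR = 0.842), while Chgb in cluster 0 was still called (-1.47, FDR = 0.0311) and Pcsk2 in cluster 6 became called. Without the barcodes that held a UMI of these genes fewer tests could be made, and none of 53 was called. Merged classes without these barcodes are given below, where some calls were kept. Over the 12 libraries Scg2 ran from 11.7 to 45.4 CPM, and the 5 genes closest to it included the synaptic genes Dnm1 (6.25 to 29.0 CPM) and Vamp2 (74.4 to 139 CPM), named after their values were seen.

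Clusters of 1 marker class were then merged, giving 11 classes and 51 member tests. Of these 7 were called, 2 higher and 5 lower with FGF1, beside 4.18% of all tests. Astrocytes held 4 of the calls. In that class 12.6% of all genes were called, 6.55% higher and 6.06% lower.

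Cpe in astrocytes ran from 4060 to 6347 normalised CPM with FGF1 (median 5414) and from 1683 to 2684 with vehicle (median 2337), so every FGF1 mouse lay above every vehicle mouse. The fold change was 1.21 (SE 0.12, FDR = 1.2e-07), a 2.31-fold difference, and it was higher in 6 of 6 batches. Without any 1 mouse it was between 1.13 and 1.29. With the neuron-gene level as a covariate it was 1.11 (FDR = 0.00289), and without barcodes that held neuron-gene UMIs 1.22.

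Astrocytes consist of clusters 1 and 4, and the mice differed in the share of each. Cluster 4, led by Gfap, Serpina3n and Aqp4, held 47.9% to 93.1% of the astrocytes of an FGF1 mouse (median 79.4%) and 3.74% to 18.4% of those of a vehicle mouse (median 6.60%). Cluster 1 was led by Slc7a10, Atp13a4 and Itih3. Within cluster 4 Cpe ran from 6190 to 7492 with FGF1 (median 6467) and from 4830 to 8470 with vehicle (median 5444), a change of 0.15 (SE 0.11, FDR = 0.760). Within cluster 1 it ran from 1812 to 3483 (median 2416) and from 1490 to 2599 (median 1954), a change of 0.30 (SE 0.14, FDR = 0.474). The difference of the merged class was thus larger than that within either cluster, and clusters were defined from all genes, Cpe included.

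Scg3 in astrocytes ran from 358 to 487 normalised CPM with FGF1 (median 428) and from 238 to 388 with vehicle (median 294). The change was 0.48 (SE 0.12, FDR = 0.00745), with a higher value in 5 of 6 batches. With the neuron-gene level as a covariate it was 0.16 (FDR = 0.822), a fit limited by the near separation of that level by treatment, given below. Without barcodes that held neuron-gene UMIs it was 0.48 (FDR = 0.0067). Within cluster 1 it was 0.29 (FDR = 0.499) and within cluster 4 0.38 (FDR = 0.371).

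**Figure D4:**
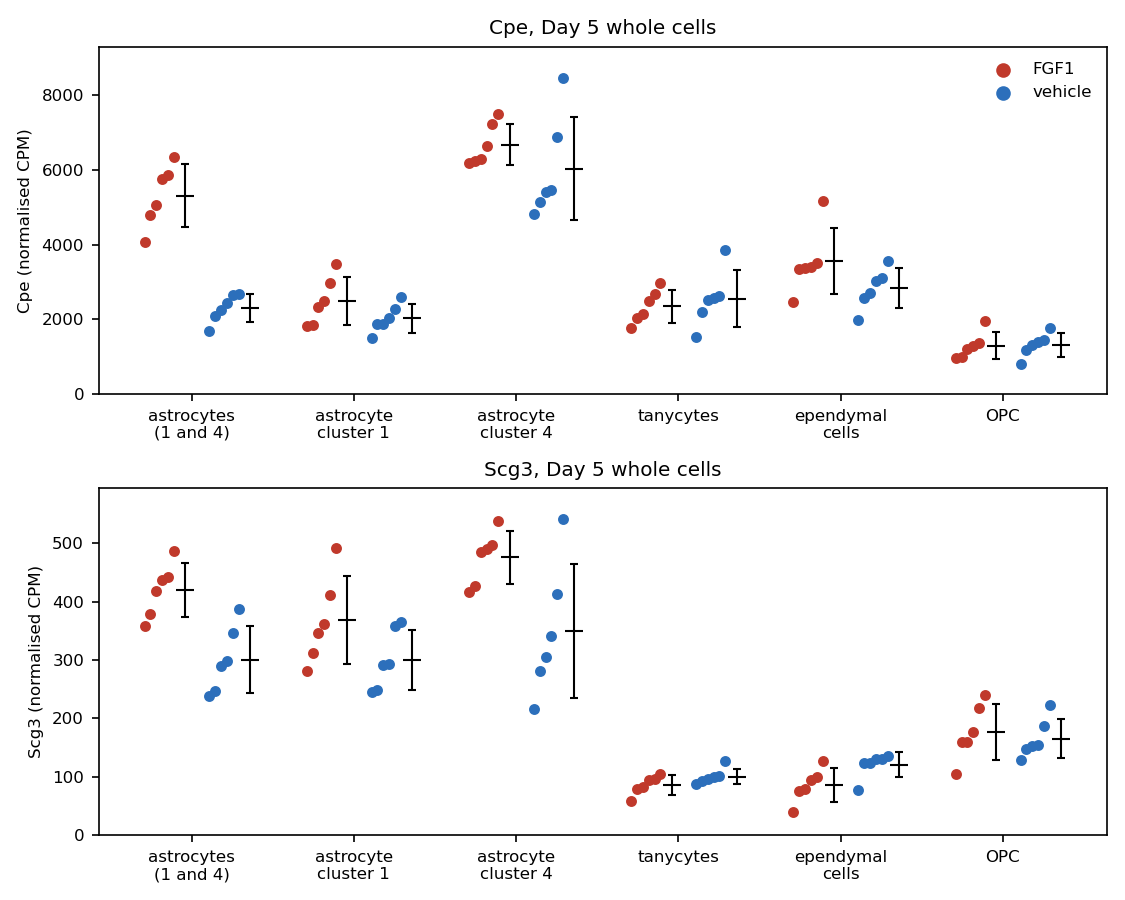
Cpe (top) and Scg3 (bottom) in Day 5 whole cells, as normalised CPM of each mouse (points, red for FGF1 and blue for vehicle, n = 6 each) with mean and SD in black. In astrocytes as a class every FGF1 mouse is above every vehicle mouse for Cpe (4060 to 6347 against 1683 to 2684), and the groups overlap within clusters 1 and 4.

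Scg2 in astrocytes ran from 8.46 to 20.9 with FGF1 (median 14.1) and from 21.5 to 57.4 with vehicle (median 42.9), without overlap (-1.44, SE 0.25, FDR = 6.9e-04). Chgb in astrocytes ran from 5.85 to 13.5 and from 9.31 to 27.1 (-0.89, SE 0.28, FDR = 0.0345). Neuron-gene UMIs in astrocytes were at 0.935 to 1.78 per 10000 with FGF1 and 1.72 to 4.58 with vehicle. With them as a covariate Scg2 was at -0.87 (FDR = 0.361) and Chgb at 0.01 (FDR = 0.999). Because these ranges barely overlapped, the covariate fit cannot tell the neuron-gene level from the treatment in astrocytes. Without the barcodes that held a neuron-gene UMI Scg2 was still called (-1.46, FDR = 1.06e-04) and Chgb was not (-0.76, FDR = 0.096). DESeq2 and thinned barcodes also called Scg2 here. DESeq2 (FDR = 0.121) and the batch block (FDR = 0.0577) did not call Chgb. With 1 mouse left out Scg2 was called in 12 of 12 fits and Chgb in 5 of 12 (-1.04 to -0.66, FDR up to 0.138).

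In tanycytes Scg2 ran from 11.2 to 21.3 with FGF1 (median 13.8) and from 16.2 to 37.4 with vehicle (median 27.1), a change of -0.96 (SE 0.21, FDR = 0.00988) beside 2.79% of genes called lower. The tanycyte clusters also shifted, cluster 0 holding 59.3% of the class with FGF1 and 77.9% with vehicle and cluster 7 holding 29.6% and 11.3%, while Scg2 within cluster 0 was called as given above. The covariate gave -0.57 (FDR = 0.344), whereas without neuron-gene barcodes Scg2 was called (-0.94, FDR = 0.0141), as it was in 10 of 12 fits with 1 mouse left out. Chgb in OPC was at -0.86 (SE 0.23, FDR = 0.0274), beside 1.54% called lower, at -0.45 with the covariate (FDR = 0.802) and at -0.97 without neuron-gene barcodes (FDR = 0.0309). DESeq2 did not call it (FDR = 0.114), and 8 of 12 fits with 1 mouse left out did. The seventh call was Scg2 in ependymal cells, which are cluster 6 alone.

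**Figure D5:**
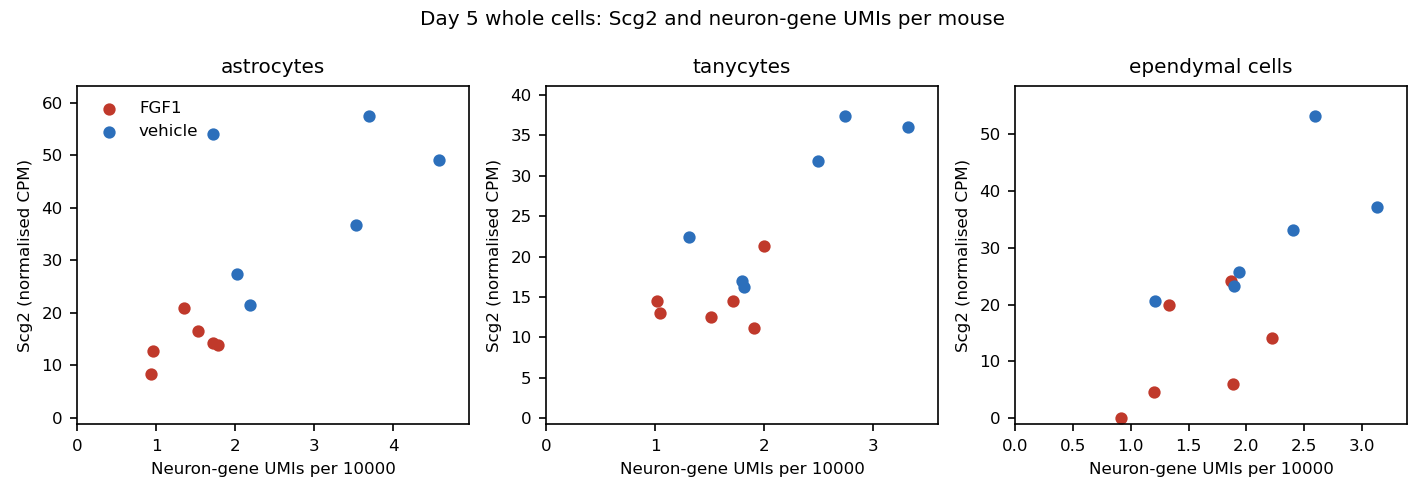
Scg2 in normalised CPM (vertical axis) against the summed UMIs of 4 neuron genes per 10000 (horizontal axis) for each Day 5 whole-cell mouse, in 3 merged classes; red is FGF1 and blue vehicle. In astrocytes the FGF1 mice (0.935 to 1.78) lie left of and below nearly all vehicle mice (1.72 to 4.58), and Scg2 there is at 8.46 to 20.9 and 21.5 to 57.4.

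Cpe did not follow the astrocyte pattern in the other classes. Its change was -0.12 in tanycytes (95% interval -0.51 to 0.27), -0.03 in OPC, -0.06 in oligodendrocytes and 0.34 in ependymal cells (0.02 to 0.65, FDR = 0.332). Oligodendrocytes shifted between clusters as well. Cluster 11, where Cpe was lowest, held 37.5% of the class with FGF1 and 2.47% with vehicle, and cluster 2 held 55.6% and 83.4%. Within clusters 2, 11 and 12 Cpe was at 0.44, -0.14 and -0.78 (FDR = 0.293, 0.745 and 0.226), and within tanycyte clusters 0, 7 and 10 at 0.00, 0.07 and -0.07. Merged astrocytes, tanycytes and oligodendrocytes therefore compare different mixes of clusters. The difference itself was tested as an interaction with mouse as a block, for 4 pairs of classes. Of 28 member tests 8 were called, beside 8.06% of all tests (15.4% for astrocytes against tanycytes, 7.52% against ependymal cells and 7.18% against oligodendrocytes).

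The FGF1 effect on Cpe was higher in astrocytes than in tanycytes by 1.30 (SE 0.13), than in oligodendrocytes by 1.28 (SE 0.15) and than in ependymal cells by 0.87 (SE 0.16). For Scg3 the same differences were 0.69, 0.77 and 0.85, with FDRs of 0.00159, 6.7e-04 and 6.5e-04. Pcsk1n was called in no class by itself, and in OPC alone (-0.76, FDR = 0.0361) with batch as a block. Its effect was 0.67 higher in astrocytes than in tanycytes (FDR = 8.7e-04) and 0.66 higher than in oligodendrocytes (FDR = 0.00599). With any 1 mouse left out all 8 were still called. Between single clusters only the largest of tanycytes (0), ependymal cells (6) and astrocytes (1) were paired. They gave no call in 19 tests, where 1.25% of all tests were called. Astrocyte cluster 4 and the oligodendrocyte clusters were in none of these pairs. An unadjusted p under 0.05 was found in 3 of the 19, beside 2916 of 27383 tests of any gene.

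Other genes of the pathway were followed in 4 lists. Their counts at an unadjusted p under 0.05 stand beside the counts over all genes given above for each comparison. Of 16 further processing enzymes, Ctsl in VLMC nuclei was the only call on Day 1, at 1675 ± 198 with FGF1 (n = 2) and 292 ± 290 with vehicle (n = 3), a change of 2.49 (FDR = 0.0117), beside 2.26% of genes called in VLMC. Each of the 3 fits without 1 vehicle mouse lost the call (FDR = 0.0562 to 0.471). The 73 tests had a median change of 0.00, beside 0.02 over all genes. None of 79 was called in Day 5 nuclei, where 8 had an unadjusted p under 0.05. In whole cells 1 of 66 was called, the convertase gene Pcsk6 in cluster 0, lower with FGF1 (15.5 ± 2.63 against 26.5 ± 5.92, n = 6, FDR = 0.0226), which was called in 9 of 12 fits with 1 mouse left out. Among 5 granin-like proteins and chaperones, which include Scg5 and Vgf, edgeR called none in 41, 34 and 40 tests of the 3 comparisons, with 2, 2 and 0 at an unadjusted p under 0.05.

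Of 22 genes of dense core vesicles and their release, 6 of 225 tests were called on Day 1, 3 in each direction and all in Tany or Epend, a share of 2.67% beside 1.05% of all tests. In these types 9.14% (Tany) and 19% (Epend) of all genes were called. Ptprn, which encodes a granule membrane protein, rose in Tany from 90.8 ± 45.7 to 464 ± 63.5 (2.46, FDR = 0.00342, n = 3). Cadps, a priming factor of granule release, rose in Epend by 1.45 (FDR = 0.0052) and in Tany by 1.67 (FDR = 0.0307), whereas its paralog Cadps2 was lower in Epend (-1.55, FDR = 0.0157) and in Tany (-1.81, FDR = 0.0296). With 1 mouse left out Ptprn was called in 5 of 6 fits, Cadps in 5 of 6 in Epend and 3 of 6 in Tany, and Cadps2 in 4 of 6 and 2 of 6, each with its sign kept. The last of the 6 calls, Syt10 in Epend (-1.38, FDR = 0.0427), named after its values were seen, was called in 0 of 6 such fits (FDR = 0.0525 to 0.166). No member was called in these types on that day.

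In Day 5 nuclei Rab3a in Glu5 was the only call of 184 (-1.73, FDR = 0.0393). It was at -0.47 without vehicle mouse 28 and at -1.86 without vehicle mouse 38. Without FGF1 mouse 37 it was at -1.49 and without FGF1 mouse 45 at -1.95. Each of these fits left 1 mouse alone in its group. In whole cells 6 of 70 tests were called, all lower, a share of 8.57% beside 1.75% of all genes. They were Sv2a in cluster 11 (-0.80, FDR = 0.00308, where 3.97% of genes were called lower), Ptprn in cluster 5 (-0.69, FDR = 0.00922), Rab3c, Dnajc5 and Syt4 in cluster 0 and Rab3a in cluster 6. With 1 mouse left out Ptprn was called in 12 of 12 fits, Sv2a in 11 and each of the others in 4 to 6, all still lower. The median change of the list was -0.26 beside 0.00 over all genes, and neuron-gene UMIs were lower with FGF1 in the same clusters.

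Of 28 neuropeptide precursors, the substrates of the members, none of 110 tests was called on Day 1, where 11 had an unadjusted p under 0.05. In Day 5 nuclei 5 of 107 were, all lower, a share of 4.67% beside 0.288% of all tests, and the median was -0.58 beside 0.00 over all genes. They were Avp in n06.Oxt (-2.40, FDR = 2.0e-04), Hcrt in n29.Nr5a1/Adcyap1 (-4.33, FDR = 0.0196), Pmch in Astro (-2.19, FDR = 0.0323) and Sst in COP and Glu5. Pmch was not called without FGF1 mouse 37 (-1.65, FDR = 0.845) or FGF1 mouse 45 (FDR = 0.0855), nor Hcrt without mouse 45 (FDR = 0.137) or Sst in Glu5 without mouse 37 (FDR = 0.498). Without vehicle mouse 28 Avp was at -1.50 (FDR = 0.413), Hcrt was not tested, and Sst was at -0.24 in COP (FDR = 0.937) and at 0.38 in Glu5 (FDR = 0.920). Of all genes 0.103% were called in n06.Oxt, 0.281% in n29.Nr5a1/Adcyap1 and 1.28% in COP. Avp encodes vasopressin, Hcrt orexin and Pmch melanin-concentrating hormone, the last 2 being peptides of lateral hypothalamic neurons. None of 42 tests was called in whole-cell clusters, where 8 had an unadjusted p under 0.05.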

How the data were processed

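The deposited raw tables hold UMI counts per gene and barcode, which the authors made with Cell Ranger 1.2 on GRCm38, introns included for nuclei. Per the file headers and methods, the authors kept barcodes within limits on genes detected and under a percent limit of mitochondrial and ribosomal UMIs of 5 for nuclei and 20 for cells, removed doublets from whole cells with Scrublet (omitted for nuclei) and removed neurons from whole cells. Of the deposited barcodes 24011 of 24965 nuclei and 50508 of 54890 cells lay inside the percent limit, and the rest were kept. The normalised tables were not used here. The 9 members and all lists were chosen with earlier results of these data known.

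Counts were summed per mouse and type (at least 10 barcodes per mouse and 2 mice per group), filtered with filterByExpr, scaled by TMM and tested with edgeR 4.0.16 (limma 3.58.1, R 4.3.3), Benjamini-Hochberg FDR under 0.05. SE is the absolute log2 fold change over the root of F. DESeq2 1.42.0, other scaling and filters, thinned barcodes, blocks, merged labels and each mouse left out were alternatives. The neuron-gene covariate was added after the data were seen. Its mean was lower with FGF1 in 19 of 19 whole-cell clusters, so a fit with it cannot fully part neuronal RNA from the treatment. List genes were named if called, up to 4 per list and comparison by smallest FDR, and a few more chosen after their values were seen. P-values measure the spread between these mice, and intervals of fold changes are at 95%. Pcsk2, Pcsk1n and Scg3 overlap genes on the opposite strand only and Pam overlaps genes on both strands. Whether any of their UMIs are shared was not tested. Scripts were tested on simulated counts in which 100 genes changed 2-fold and 100 changed 4-fold. In Day 1 Astro nuclei 0 and 8 of these were recovered, and in Day 5 Astro nuclei 12 and 78. Whole-cell cluster 0 gave 81 and 91, and merged astrocytes 82 and 94. A missing call in Day 1 nuclei therefore does not show that a gene was unchanged.

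Replicate numbers did not pair the nuclei, since same-numbered mice of Day 1 did not deviate together in every pair. Each whole-cell batch held 1 FGF1 and 1 vehicle mouse, and correlations of deviations within a batch ran from -0.13 to 0.37.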

Additional observations from a re-analysis of the deposited data

Results flagged for a closer look

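The values flagged first are single mice that stood apart within their group, among 44 groups examined, of which chance flags about 1 in 20. In Day 5 whole cells, Chgb in vehicle mouse 27 was at 27.5 normalised CPM in cluster 0 (next highest 14.7) and at 23.9 in merged tanycytes (next 13.4). Scg2 in tanycytes was at 21.3 in FGF1 mouse 28 (next 14.5), Scg3 in ependymal cells was low at 77.2 in vehicle mouse 35 (next 123), and Scg3 in tanycytes was at 126 in vehicle mouse 29 (next 100). Without vehicle mouse 27 Chgb in cluster 0 was at -0.98 (FDR = 0.0816).

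The other flagged values are FGF1 effects that differed between merged classes of Day 5 whole cells by their own test. For Cpe the astrocyte effect exceeded that in tanycytes by 1.30, in oligodendrocytes by 1.28 and in ependymal cells by 0.87. For Scg3 these differences were 0.69, 0.77 and 0.85, and for Pcsk1n 0.67 against tanycytes and 0.66 against oligodendrocytes. The clusters of astrocytes, tanycytes and oligodendrocytes held different shares of their class in the 2 treatments, and the part of these shifts was not tested.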

How the results depend on the processing

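On Day 1 no member test was called as reported, 1 was without the low-count filter, 1 with DESeq2, 0 with the replicate number as a block (109 tests) and 0 to 4 with 1 mouse left out, the 4 without FGF1 replicate 1. In Day 5 nuclei the 2 calls became 7 without the filter, 0 with DESeq2 and 1 under the stated mitochondrial and ribosomal limit. They became 0 with thinned barcodes, 1 with at least 30 barcodes and 0 in merged neurons under every setting that kept all mice. Fits with 1 mouse left out assume that the mouse left alone in its group varies like the other group, so their calls are not counted here. In Day 5 whole cells the 4 calls became 0 with DESeq2, 1 under the limit, 1 thinned, 0 without barcodes holding neuron-gene UMIs, 8 with the batch block and 2 with the neuron-gene covariate, all in single clusters. Merged classes gave 7, and then 7 with RLE scaling, 9 with the batch block, 2 with the covariate, 4 with DESeq2, 5 thinned and 5 without neuron-gene barcodes. Leaving out 1 mouse gave 0 to 10, with 0 without vehicle mouse 20 or 25, 2 without FGF1 mouse 7, 10 or 21 or vehicle mouse 27, and 7 without vehicle mouse 22 in clusters. The cause was not tested. Shares over all genes given above belong to the fits they stand with, and are no background for the other counts in this section.

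Day interactions went from 0 to 2 without the filter. Differences between types went from 0 to 1 with RLE scaling, 8 merged, 8 merged with DESeq2, 9 merged with RLE scaling and 0 to 10 with 1 mouse left out. Both days fitted together gave 0 to 6. The 20 list calls became 57 without the filter, 10 with DESeq2, 11 with 30 barcodes, 12 thinned and 9 without neuron-gene barcodes. Chgb in astrocytes turned to 0.0100 with the covariate. The highest type was the same for 6 of 9 members after thinning. Same-numbered or same-batch pairs of nuclei did not deviate together in every pair, so the replicate block is given only here.

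Depth limits the rest: Day 5 nuclei came from 2 mice per group, Scg2 and Chgb had 2012 and 1116 UMIs in all whole cells, and Pcsk1, with 53, was not tested there.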

Other observations

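Over 21 nuclear types with at least 50 vehicle nuclei each, and among 12644 genes, the genes closest to each member by Pearson's r of log2(mean CPM + 1) were listed as a description, across types that share libraries. Scg2 was followed by Resp18 (0.94), which encodes a protein of the granule lineage, Usp14 (0.90) and Nrsn2 (0.89). Cpe was followed by Mt2 (0.93), Ttyh1 (0.92) and Rfx4 (0.91), of which Ttyh1 and Rfx4 are known glial genes. Chga was followed by Stmn3 (0.86), Ajap1 (0.85) and Tecr (0.84), and Chgb by Alas2 (0.88), Dctn3 (0.86) and Celsr3 (0.86). For Pcsk1 the closest genes were Pdlim7 (0.88), Samd11 (0.86) and Pnn (0.83), and for Pam they were Gm26848 (0.87), Tmem181a (0.86) and Frmpd3 (0.85). For Pcsk2 they were Rasgrf2 (0.80), Fam118a (0.79) and Arg2 (0.78), for Pcsk1n Pisd (0.77), Fxyd7 (0.76) and Cygb (0.76), and for Scg3 Rbm15 (0.79), Svbp (0.77) and Stoml2 (0.76).

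In merged classes of Day 5 whole cells 13 of 62 tests of dense core vesicle genes were called, 12 lower with FGF1, a share of 21.0% beside 4.18% of all tests and 12.6% of genes in astrocytes. In astrocytes Sv2a was at 16.0 ± 6.04 normalised CPM with FGF1 and 33.6 ± 8.98 with vehicle (-1.07, FDR = 0.00195, n = 6), and Rab3c at 12.9 ± 5.56 and 30.7 ± 12.4 (-1.38, FDR = 0.0029). The member of the list that was higher, Rab2a, was chosen after its values were seen and stood at 110 ± 22.6 and 80.4 ± 10.8 in astrocytes (0.44, FDR = 0.0331). Of the neuropeptide precursors 4 of 39 tests were called, a share of 10.3%, all lower and all in astrocytes, where 6.06% of all genes were called lower. They were Pmch (-1.39, FDR = 0.00509), Agrp (-0.80, FDR = 0.0237), Cartpt (-1.28, FDR = 0.0435) and Tac1 (-1.07, FDR = 0.0459). The neuron-gene UMIs of astrocytes were lower with FGF1 as well, and their part was not tested. The convertase-like enzyme gene Ece2 was higher in astrocytes (31.1 ± 10.3 against 19.4 ± 2.78, 0.63, FDR = 0.0232).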
